A study of Mus musculus with 15 samples.

Results

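Gene expression was compared before and after fear extinction in antibiotic-treated mice, using 8 of the 15 RNA sequencing libraries of a study of the mouse medial prefrontal cortex (mPFC). All 8 came from dissected mPFC of C57BL/6J mice labelled as ABX treated, where ABX commonly stands for an antibiotic cocktail. Libraries were taken by their labels for treatment and stage: 4 libraries of the pre-extinction ABX group and 4 of the post-extinction ABX group, so that both groups share the treatment and the strain and differ in the labelled stage. The other 7 libraries, 3 pre-extinction and 4 post-extinction, came from mice of the same strain without ABX. They served to test where the stage difference depended on treatment. They also entered the same fit, so that the spread behind the main p-values for ABX mice was estimated from all 15 libraries. The labels give no sex, age, antibiotic mixture, or training schedule, and they do not say whether each library was 1 animal. The p-values therefore measure the spread between libraries, estimated in the main fit over all 15.

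Fear extinction is the decline of a learned fear response when the conditioned cue is presented repeatedly without its aversive outcome, and the mPFC is one of the regions that control it. Handling, training and fear memory recall engage the hypothalamic-pituitary-adrenal axis, whose end product in mice, corticosterone, enters the brain, binds the glucocorticoid receptor and induces a well-described set of target genes. The same hormone follows a daily rhythm, and cortical cells also carry a molecular clock of transcription factors. Neuronal activity induces a further set of immediate early genes, some of which encode transcription factors themselves.

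The 8 libraries held 44254906 to 55058397 counts each. Cortical markers were high in all of them: Slc17a7, the vesicular glutamate transporter of cortical excitatory neurons, lay between 1200 and 1660 CPM (counts relative to the library total), and the cortical transcription factor gene Tbr1 lay at 119 to 144 CPM. Drd1, a dopamine receptor abundant in the neighbouring striatum, was at 8.02 to 15.3 CPM. Post-extinction replicate 1 carried more transcripts of neutrophils and of choroid plexus than the others, with S100a9 at 3.62 CPM against at most 0.165 in the other 3 post-extinction libraries and Ttr at 11.6 CPM against 0.0545 to 0.275 in the other 7. Libraries also differed in how counts depended on the GC content of a transcript: the slope, in log2 units per 10 percentage points of GC and relative to the mean of all libraries, was -0.411, -0.131, -0.324 and 0.042 in pre-extinction replicates 1 to 4 and -0.096, -0.123, 0.123 and 0.121 in post-extinction replicates 1 to 4. This slope moved partly with stage, pre-extinction replicates 1 and 3 having the lowest values. Its part in the results was not tested, and values with the GC trend removed are given beside the results they bear on.

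Few single genes passed the test between stages. Of 16816 genes tested, 13 (0.0773%) were called higher and 3 (0.0178%) lower after extinction in ABX mice at an edgeR quasi-likelihood adjusted p under 0.05, adjusted by Benjamini-Hochberg over all genes. The genes called higher included 3 induced by glucocorticoids (Plin4, Hif3a and Fkbp5) and 2 of the circadian clock (Tef and Per3). Those called lower were the potassium channel gene Kcnh7, the protocadherin gene Pcdh11x and Ptar1. For all 16 the 4 post-extinction libraries did not overlap the 4 pre-extinction libraries, which held for 452 (2.69%) of all genes tested in the upward and 468 (2.78%) in the downward direction, 920 (5.47%) in all. A further 1280 genes (7.61%, calls included) were higher and 1499 (8.91%) lower at an unadjusted p under 0.05. Across all genes tested the median log2 difference was 0.005 and 51% were higher after extinction, values that the TMM scaling centres near balance.

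**Figure D1:**
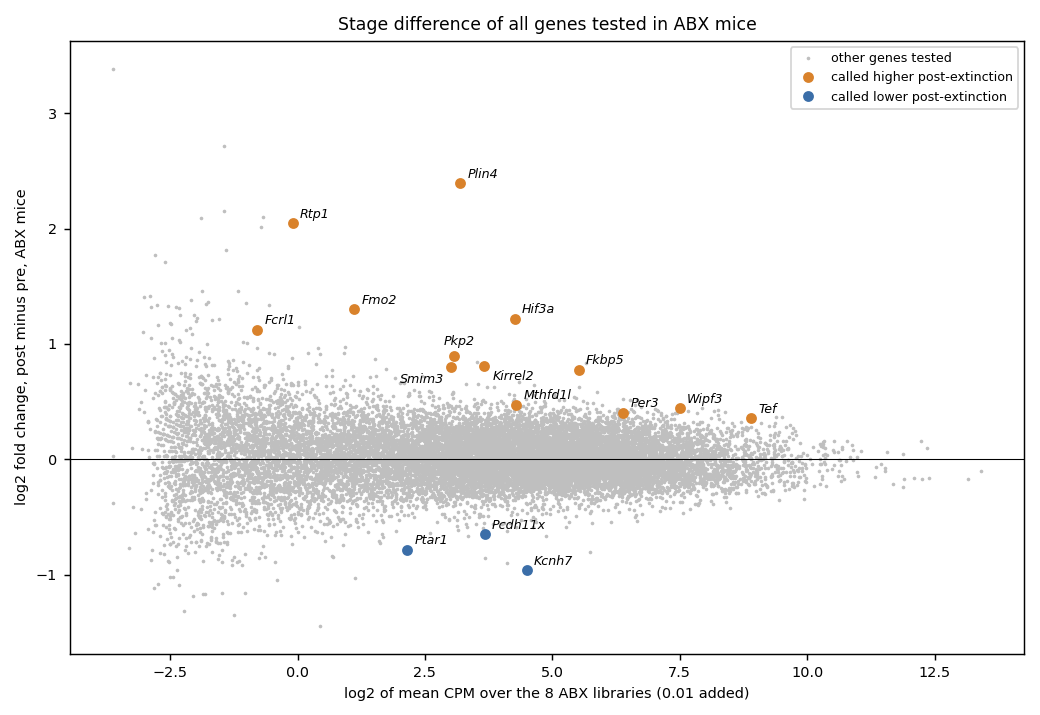
Log2 fold change after against before extinction in ABX mice for each gene tested (vertical axis) against the log2 of its mean CPM over the 8 libraries (horizontal axis). The 13 genes called higher (orange) and 3 called lower (blue) are named; grey points are genes that did not pass, and several of them at low levels have larger fold changes than the called genes.

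The number of calls depended strongly on single libraries. Without pre-extinction replicate 4, 102 genes were called higher and 141 lower, and without post-extinction replicate 1 the counts were 29 and 14. Without any 1 of the other 6 libraries, 3 or 4 genes were called higher and 0 or 1 lower. Pre-extinction replicate 4 was the highest of its group for 9 of the 13 genes called higher, so that it lay closest to the post-extinction libraries. Post-extinction replicate 4 was the highest of its group for 10 of the 13, and post-extinction replicate 1 the lowest for 7. Fmo2, Pkp2 and Smim3 were called in all 8 fits with 1 library left out, and none of the other 13 genes was.

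The glucocorticoid-induced genes held the largest fold change among the called genes. Plin4, at 17:56100587-56109948 of the GRCm38.p6 (mm10) assembly, encodes perilipin 4, a coat protein of lipid droplets whose transcript is induced by glucocorticoids in brain. It stood at 2.04, 1.74, 2.75 and 5.14 CPM in pre-extinction replicates 1 to 4 and at 7.66, 10.97, 16.2 and 26.5 CPM in post-extinction replicates 1 to 4. The lowest post-extinction value lay above the highest pre-extinction value, and replicate 4 was highest in both groups. The means were 2.92 ± 1.54 and 15.3 ± 8.24 CPM (SD, n = 4 each), a log2 difference of 2.39 (SE 0.35, edgeR adjusted p = 0.0165). Plin4 overlaps Hdgfl2, and because the libraries do not keep strand, reads from the shared stretch cannot be told apart. Hdgfl2 itself differed by a log2 value of 0.36 and did not pass (edgeR adjusted p = 0.237).

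Hif3a (7:17030993-17062427), which encodes a hypoxia-inducible factor subunit and is also a glucocorticoid target, stood at 11.7, 6.93, 11.5 and 16.0 CPM before extinction and at 21.8, 28.1, 26.4 and 30.8 CPM after it. Every post-extinction library exceeded every pre-extinction library. The group means were 11.5 ± 3.69 and 26.8 ± 3.77 CPM (SD, n = 4 each), a log2 difference of 1.22 (SE 0.19, edgeR adjusted p = 0.0186). Fkbp5 (17:28398753-28486149) encodes a co-chaperone that binds the glucocorticoid receptor complex and lowers its affinity for hormone, in a short negative feedback loop. It stood at 28.4, 28.0, 33.0 and 45.2 CPM before extinction and at 48.2, 55.9, 59.5 and 67.2 CPM after it. Pre-extinction replicate 4 came close to post-extinction replicate 1, but the groups did not overlap. The means were 33.6 ± 8.01 and 57.7 ± 7.90 CPM (SD, n = 4 each), a log2 difference of 0.78 (SE 0.13, edgeR adjusted p = 0.0325).

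Each of these calls was lost when certain libraries were left out. Plin4 did not pass without pre-extinction replicate 1, 2 or 3 or post-extinction replicate 3 (log2 difference 1.99 to 2.82 over the 8 fits, largest edgeR adjusted p = 0.0875). Hif3a did not pass without pre-extinction replicate 1 or 3 or post-extinction replicate 2, 3 or 4 (1.04 to 1.42, largest edgeR adjusted p = 0.0996). Fkbp5 passed only without pre-extinction replicate 4 or post-extinction replicate 1 (0.70 to 0.95 over the 8 fits, largest edgeR adjusted p = 0.138). The direction was the same in every fit. None of the 3 passed when the 8 ABX libraries were fitted alone (edgeR adjusted p = 0.0807 for Plin4 and Hif3a and 0.146 for Fkbp5).

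The list of 25 glucocorticoid-induced genes, these 3 included, leaned upward without further calls. It was chosen with earlier results of these data known. In all, 17 of the 25 were higher and 8 lower after extinction, with a median log2 difference of 0.43 against 0.005 over all genes. At an unadjusted p under 0.05, 13 were higher and 1 was lower, against 7.61% and 8.91% of all genes tested. The libraries of 7 did not overlap in the upward direction and those of 1 in the downward, against 2.69% and 2.78% of all genes. Tsc22d3, which encodes the anti-inflammatory protein GILZ, stood at 60.9, 58.6, 74.7 and 79.1 CPM before and 97.9, 91.5, 85.9 and 116 CPM after extinction, without overlap, and missed the threshold with a log2 difference of 0.52 (SE 0.11, edgeR adjusted p = 0.0700). Sult1a1, a phenol sulfotransferase, differed by 0.63 (SE 0.14, edgeR adjusted p = 0.0769) and Pla2g3, a secreted phospholipase, by 0.72 (SE 0.16, edgeR adjusted p = 0.0835).

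Other well-known targets lay near 0 or below it. Sgk1, a kinase that regulates ion transport, had a log2 difference of 0.15, the transcription factor gene Klf9 of -0.02 and the clock gene Per1 of -0.04, and Tmem252 lay in the opposite direction at -0.74 (edgeR adjusted p = 0.148). The median over the list stayed between 0.29 and 0.54 with any 1 library left out and was 0.29 with the GC trend removed. Averaged over the list, log2 CPM was 3.73, 3.71, 3.79 and 4.14 in pre-extinction replicates 1 to 4 and 4.16, 4.06, 4.32 and 4.45 in post-extinction replicates 1 to 4. Pre-extinction replicate 4 thus lay within the post-extinction range and the other 3 pre-extinction libraries below it.

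In non-ABX mice the same genes showed smaller stage differences, none of which passed. The log2 differences there were 0.98 for Plin4, 0.22 for Hif3a, 0.25 for Fkbp5 and 0.02 for Tsc22d3, and the list median was -0.07. Tested directly, the stage difference was larger in ABX than in non-ABX mice by 1.41 for Plin4 (95% interval 0.31 to 2.52), by 1.00 for Hif3a (0.41 to 1.598), by 0.53 for Fkbp5 (0.10 to 0.96) and by 0.49 for Tsc22d3 (0.15 to 0.84). Unadjusted p-values from the edgeR fit were 0.0121, 0.00191, 0.0146 and 0.00630 in that order, and none passed adjustment over all genes. These genes were named by their stage difference in ABX mice, which is part of the interaction. Their intervals and p-values can therefore overstate the dependence on treatment. Of the 25 genes, 8 had an unadjusted interaction p under 0.05, all with the more positive stage difference in ABX mice. Of all 16816 genes 344 (2.05%) had such a p-value, 215 of them in the same direction. Not all 8 were higher after extinction in ABX mice: the log2 difference of Cdkn1a, a cell cycle inhibitor gene, was -0.08 in ABX and -0.43 in non-ABX mice.

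The receptors that read the hormone did not pass the test. Nr3c1, encoding the glucocorticoid receptor, stood at 151, 137, 166 and 129 CPM before and 125, 122, 105 and 112 CPM after extinction. All 4 post-extinction values lay below the 4 pre-extinction values, with a log2 difference of -0.33 (SE 0.09, edgeR adjusted p = 0.137). For Nr3c2, the mineralocorticoid receptor gene, the difference was -0.03. Over the 12 genes of the corticosteroid receptor and corticotropin-releasing hormone list, 3 were higher and 9 lower with a median of -0.07, and none was called.

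**Figure D2:**
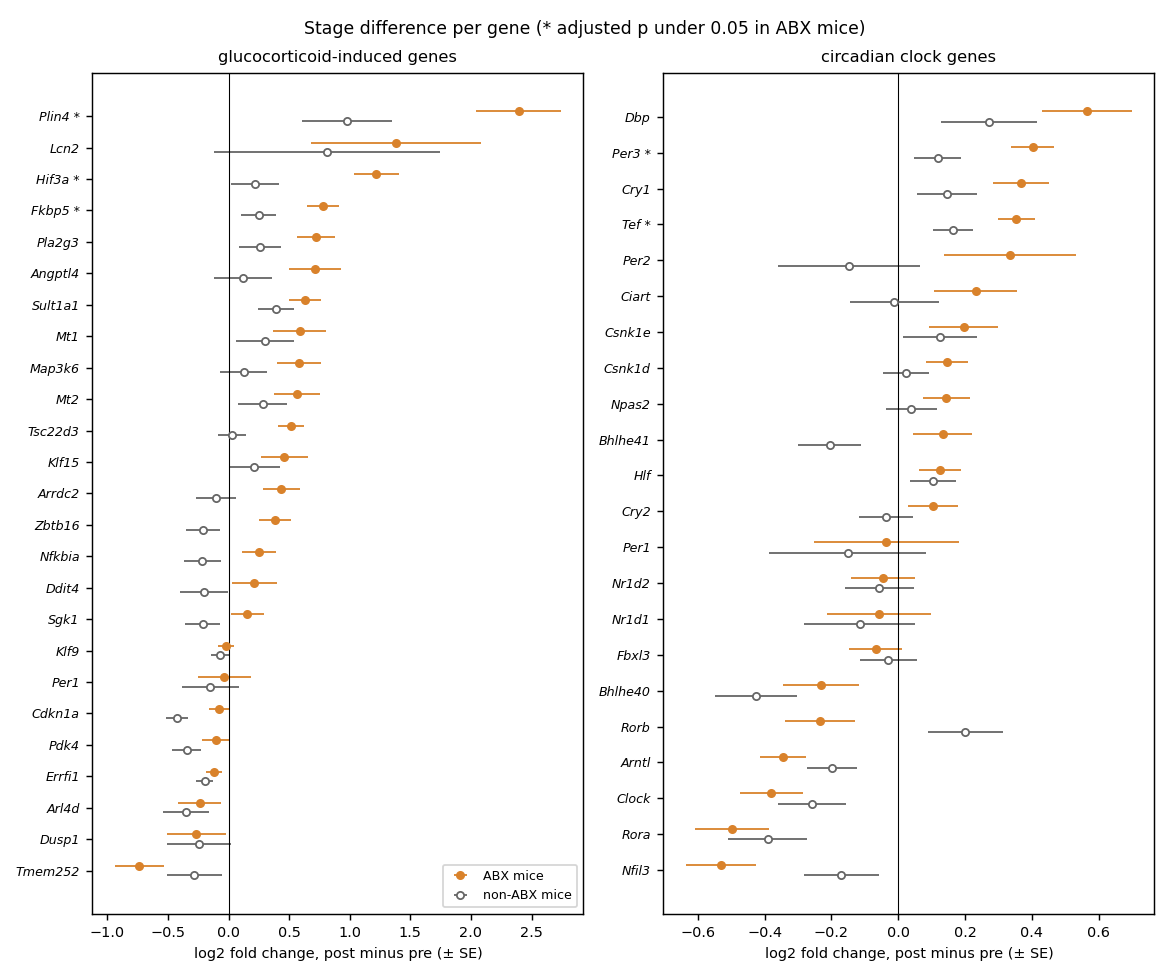
Log2 fold change after against before extinction with its SE (horizontal axis) for each gene of the glucocorticoid-induced list (left) and the circadian clock list (right), in ABX mice (filled orange) and non-ABX mice (open grey). An asterisk marks an edgeR adjusted p under 0.05 in ABX mice: Plin4, Hif3a and Fkbp5 on the left, Per3 and Tef on the right.

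The circadian clock is a feedback loop in which the activators encoded by Arntl and Clock drive the Per and Cry repressors through E-boxes. Output factors of the PAR bZIP family, among them the products of Tef and Dbp, bind D-boxes, at which the product of Nfil3 opposes them, and another element, bound by ROR and REV-ERB receptors, controls Arntl. The promoters below are printed because these elements, searched on both strands in RefSeq windows of GRCm38.p6 from 250 bases before to 50 bases after a transcription start, were found in Tef, Per3 and Arntl, which stand for the output, repressor and activator arms. Capitals mark the E-box CACGTG in Tef (chr15:81811164-81811463, plus strand), 2 copies of the D-box TTATGTAA in Per3 (chr4:151044616-151044915, minus strand) and the ROR element in Arntl (chr7:113207261-113207560, plus strand).
Tef: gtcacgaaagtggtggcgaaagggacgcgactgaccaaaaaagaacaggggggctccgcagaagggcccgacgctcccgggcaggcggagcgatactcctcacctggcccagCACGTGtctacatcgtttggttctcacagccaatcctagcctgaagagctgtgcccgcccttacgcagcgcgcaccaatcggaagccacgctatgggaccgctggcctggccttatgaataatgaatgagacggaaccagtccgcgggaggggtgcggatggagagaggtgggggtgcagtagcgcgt
Per3: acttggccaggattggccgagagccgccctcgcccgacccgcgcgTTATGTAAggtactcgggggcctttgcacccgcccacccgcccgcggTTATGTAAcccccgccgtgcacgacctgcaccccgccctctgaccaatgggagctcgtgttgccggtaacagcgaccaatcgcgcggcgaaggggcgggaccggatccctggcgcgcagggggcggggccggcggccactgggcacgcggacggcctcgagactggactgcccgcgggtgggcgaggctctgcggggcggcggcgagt
Arntl: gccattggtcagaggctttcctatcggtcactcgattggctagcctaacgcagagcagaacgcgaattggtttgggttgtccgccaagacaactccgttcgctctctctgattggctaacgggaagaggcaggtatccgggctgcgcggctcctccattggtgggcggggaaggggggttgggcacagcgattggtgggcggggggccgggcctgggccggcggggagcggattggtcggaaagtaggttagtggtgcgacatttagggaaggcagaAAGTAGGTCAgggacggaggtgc
Among all 32851 windows of the table, 7.15% held the E-box, 0.938% the D-box and 0.219% the ROR element, where the ROR element was searched as AANTA followed by GGTCA, and no match shown overlapped another of the motifs searched. RefSeq gives 2 windows for Tef, and both hold an E-box: that of the printed window lies 138 bases before its start and that of the other, at chr15:81802423-81802722, 127 bases before. The D-boxes of Per3 lie 205 and 158 bases before the start. Of 2 windows for Arntl only the printed one holds the ROR element, 27 bases after the start. Of the 18 clock genes with a window, 5 held the E-box, Per3 not among them, 1 the D-box and 1 the ROR element. Over all genes with a window the shares were 8.09%, 1.11% and 0.259%. The E-box was not particular to the clock list. It was found in 5 of 22 glucocorticoid-induced, 4 of 16 cholesterol and 2 of 12 called genes with a window. The glucocorticoid response element was found in 0 of 12 called and 1 of 22 glucocorticoid-induced genes with a window (0.0111% of all genes). A sterol regulatory element was found in 1 of 16 cholesterol genes (1.44% of all genes). A match describes the letters in the window and does not show binding.

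Among the clock genes, Tef and Per3 rose. Tef (15:81802673-81826863) stood at 406, 408, 411 and 450 CPM before extinction and at 530, 531, 522 and 557 CPM after it. Within each stage the values lay close together, apart from pre-extinction replicate 4, and the groups did not overlap. The means were 419 ± 20.9 and 535 ± 15.3 CPM (SD, n = 4 each), a log2 difference of 0.35 (SE 0.06, edgeR adjusted p = 0.0231). Per3 (4:150997018-151044707), a member of the Period family, stood at 68.5, 69.4, 71.8 and 78.9 CPM before and at 89.4, 91.3, 96.4 and 104 CPM after extinction, again without overlap. Its means were 72.2 ± 4.69 and 95.3 ± 6.62 CPM (SD, n = 4 each), a log2 difference of 0.40 (SE 0.06, edgeR adjusted p = 0.0256). Both genes passed only without pre-extinction replicate 4 or post-extinction replicate 1 among the 8 fits with 1 library left out (largest edgeR adjusted p = 0.1 for Tef and 0.101 for Per3), and neither passed with the 8 ABX libraries fitted alone (edgeR adjusted p = 0.146 and 0.148). Per3 overlaps Uts2, which was under 1 CPM in every ABX library.

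The remaining clock genes were divided in direction and none passed. Of the 22 genes 12 were higher and 10 lower, with a median log2 difference of 0.11, which was 0.07 without pre-extinction replicate 2 and 0.05 with the GC trend removed. At an unadjusted p under 0.05, 5 were higher and 5 were lower, against 7.61% and 8.91% of all genes tested. In each direction 4 had libraries that did not overlap, against 2.69% (higher) and 2.78% (lower) of all genes. Dbp, the D-box activator, stood at 11.1, 13.4, 14.3 and 18.5 CPM before and 21.3, 19.3, 23.2 and 20.8 CPM after extinction, a log2 difference of 0.57 (SE 0.13, edgeR adjusted p = 0.113), and the repressor gene Cry1 differed by 0.37 (edgeR adjusted p = 0.0976).

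On the lower side stood the activator genes Arntl, Clock and Rora and the D-box repressor Nfil3. The activator gene Npas2 lay on the other side, at 0.14 (SE 0.07, edgeR adjusted p = 0.314). Nfil3 was at 11.3, 11.6, 8.90 and 9.41 CPM before and 7.71, 7.18, 7.21 and 6.37 CPM after extinction, a log2 difference of -0.53 (SE 0.11, edgeR adjusted p = 0.0651). Arntl was at 64.6, 57.3, 55.1 and 56.7 CPM before and 47.7, 45.7, 46.1 and 44.4 CPM after, a log2 difference of -0.34 (SE 0.07, edgeR adjusted p = 0.0700). In both genes all post-extinction libraries lay below all pre-extinction libraries. Rora, which encodes a ROR receptor, differed by -0.50 (edgeR adjusted p = 0.0903) and Clock by -0.38 (edgeR adjusted p = 0.124). Per1 at -0.04, Nr1d1 (REV-ERB alpha) at -0.06 and Per2 at 0.33 had SEs of 0.22, 0.15 and 0.20, far larger than the SEs of Tef and Per3.

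No stage difference of a clock gene passed in non-ABX mice. The log2 differences there were 0.16 for Tef, 0.12 for Per3, -0.17 for Nfil3 and -0.20 for Arntl, smaller than in ABX mice. Some other clock genes had the larger value in non-ABX mice, among them the repressor gene Bhlhe40 (-0.43 against -0.23 in ABX mice), Per1 (-0.15 against -0.04) and Nr1d1 (-0.12 against -0.06). The stage difference in ABX mice exceeded that in non-ABX mice by 0.28 for Per3 (95% interval 0.07 to 0.49) and by 0.19 for Tef (0.01 to 0.37), with unadjusted edgeR interaction p-values of 0.00863 and 0.0335. For Arntl the interval of the difference ran from -0.37 to 0.08 and included 0. Tef and Per3 were named by their stage difference in ABX mice, so that here too the interaction can be overstated. The labels state no hour of sampling for either stage.

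Among the genes outside these lists, Fmo2, Pkp2 and Smim3 gave the calls that did not depend on 1 library. Fmo2 (1:162874317-162898758) encodes a flavin-containing monooxygenase, an enzyme that oxidises drugs and other nitrogen- and sulfur-containing compounds. It stood at 1.48, 0.998, 1.11 and 1.41 CPM before and 2.87, 3.60, 2.76 and 3.04 CPM after extinction. The post-extinction libraries lay close together and well above the pre-extinction ones. The means were 1.25 ± 0.233 and 3.07 ± 0.373 CPM (SD, n = 4 each), a log2 difference of 1.30 (SE 0.13), and its edgeR adjusted p of 6.42e-04 was the smallest of all genes. With 1 library left out, Fmo2 kept an edgeR adjusted p of at most 0.00391.

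Pkp2 (16:16213345-16272712) encodes plakophilin 2, a desmosomal plaque protein best known from heart muscle. It stood at 4.80, 5.95, 6.70 and 6.09 CPM before and 8.96, 12.1, 11.7 and 11.1 CPM after extinction, without overlap. The means were 5.89 ± 0.793 and 10.9 ± 1.39 CPM (SD, n = 4 each), a log2 difference of 0.90 (SE 0.11, edgeR adjusted p = 0.00289, at most 0.0205 with 1 library left out). Smim3 (18:60474191-60518949), a gene for a small integral membrane protein, stood at 5.27, 5.43, 6.11 and 6.63 CPM before and 9.92, 10.4, 9.41 and 11.1 CPM after extinction. Its log2 difference was 0.80 (SE 0.10, edgeR adjusted p = 0.00372, at most 0.0262 with 1 library left out). All 3 genes also passed when the 8 ABX libraries were fitted alone, with edgeR adjusted p-values of 0.0232, 0.0485 and 0.0279 for Fmo2, Pkp2 and Smim3.

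In non-ABX mice the stage difference was 0.35 for Fmo2, 0.08 for Pkp2 and 0.26 for Smim3, and none passed. Pkp2 was at 6.33 ± 0.425 CPM (SD, n = 3) before and 6.70 ± 0.174 CPM (SD, n = 4) after extinction in those mice, close to the pre-extinction ABX level. The stage difference was larger in ABX mice by 0.95 for Fmo2 (95% interval 0.53 to 1.37), by 0.81 for Pkp2 (0.46 to 1.16) and by 0.54 for Smim3 (0.21 to 0.86). The interaction did not pass in edgeR for any of them (adjusted p = 0.556 for Fmo2 and Pkp2 and 1.00 for Smim3). DESeq2 called it for Fmo2 (adjusted p = 0.0282) and Pkp2 (adjusted p = 0.00929). Fmo2, Pkp2 and Smim3 were named by their stage difference in ABX mice, which can overstate the interaction.

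Wipf3, Mthfd1l and Kirrel2 also rose after extinction. Wipf3 (6:54429218-54503768), whose product binds the actin regulator N-WASP, stood at 144, 148, 153 and 170 CPM before and 185, 201, 222 and 226 CPM after extinction, a log2 difference of 0.44 (SE 0.07, edgeR adjusted p = 0.0256). It overlaps Scrn1, for which the difference was -0.13 and did not pass. The long non-coding RNA gene 9130019P16Rik, also tested, overlaps Wipf3 too, and shared reads cannot be told apart. Mthfd1l (10:3972892-4167081), encoding a mitochondrial enzyme of one-carbon folate metabolism, stood at 14.1, 16.6, 16.5 and 18.5 CPM before and 21.6, 23.8, 21.5 and 24.2 CPM after, a difference of 0.47 (SE 0.08, edgeR adjusted p = 0.0325). Kirrel2 (7:30447766-30457515), an immunoglobulin superfamily adhesion gene, stood at 8.92, 8.42, 8.13 and 10.97 CPM before and 13.4, 15.7, 15.9 and 18.9 CPM after, a difference of 0.81 (SE 0.15, edgeR adjusted p = 0.0450).

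The neighbouring gene of Kirrel2, Nphs1, which encodes nephrin, a protein of the same family, differed by 0.57 (edgeR adjusted p = 0.0700) without overlap of the libraries. Wipf3, Mthfd1l and Kirrel2 passed only without pre-extinction replicate 4 or post-extinction replicate 1 among the fits with 1 library left out (largest edgeR adjusted p = 0.114, 0.138 and 0.209), and none of the 3 passed with the 8 ABX libraries fitted alone (edgeR adjusted p = 0.156, 0.164 and 0.0807). Kirrel2 also missed the threshold under a minimum mean of 1 CPM (edgeR adjusted p = 0.0529). In non-ABX mice the stage differences were 0.15 for Wipf3, 0.32 for Mthfd1l and 0.45 for Kirrel2, and none passed. The last 2 genes called higher averaged under 1 CPM and are named after their values were seen. Rtp1 (16:23429133-23433960), a receptor-transporting protein gene of olfactory neurons, stood at 0.531, 0.236, 0.342 and 0.343 CPM before and 1.02, 1.28, 0.987 and 2.67 CPM after extinction, a difference of 2.05 (SE 0.37, edgeR adjusted p = 0.0450). Fcrl1 (3:87376353-87403967), an Fc receptor-like gene known from B cells, differed by 1.12 (SE 0.19, edgeR adjusted p = 0.0331) from a mean of 0.355 to a mean of 0.777 CPM. Rtp1 and Fcrl1 lost the call in 6 and 5 of the 8 fits with 1 library left out, Rtp1 without pre-extinction replicate 1, 2 or 3 or post-extinction replicate 2, 3 or 4 and Fcrl1 without the same libraries except post-extinction replicate 3 (largest edgeR adjusted p = 0.190 and 0.162), and neither passed with the 8 ABX libraries alone (edgeR adjusted p = 0.123 and 0.148).

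**Figure D3:**
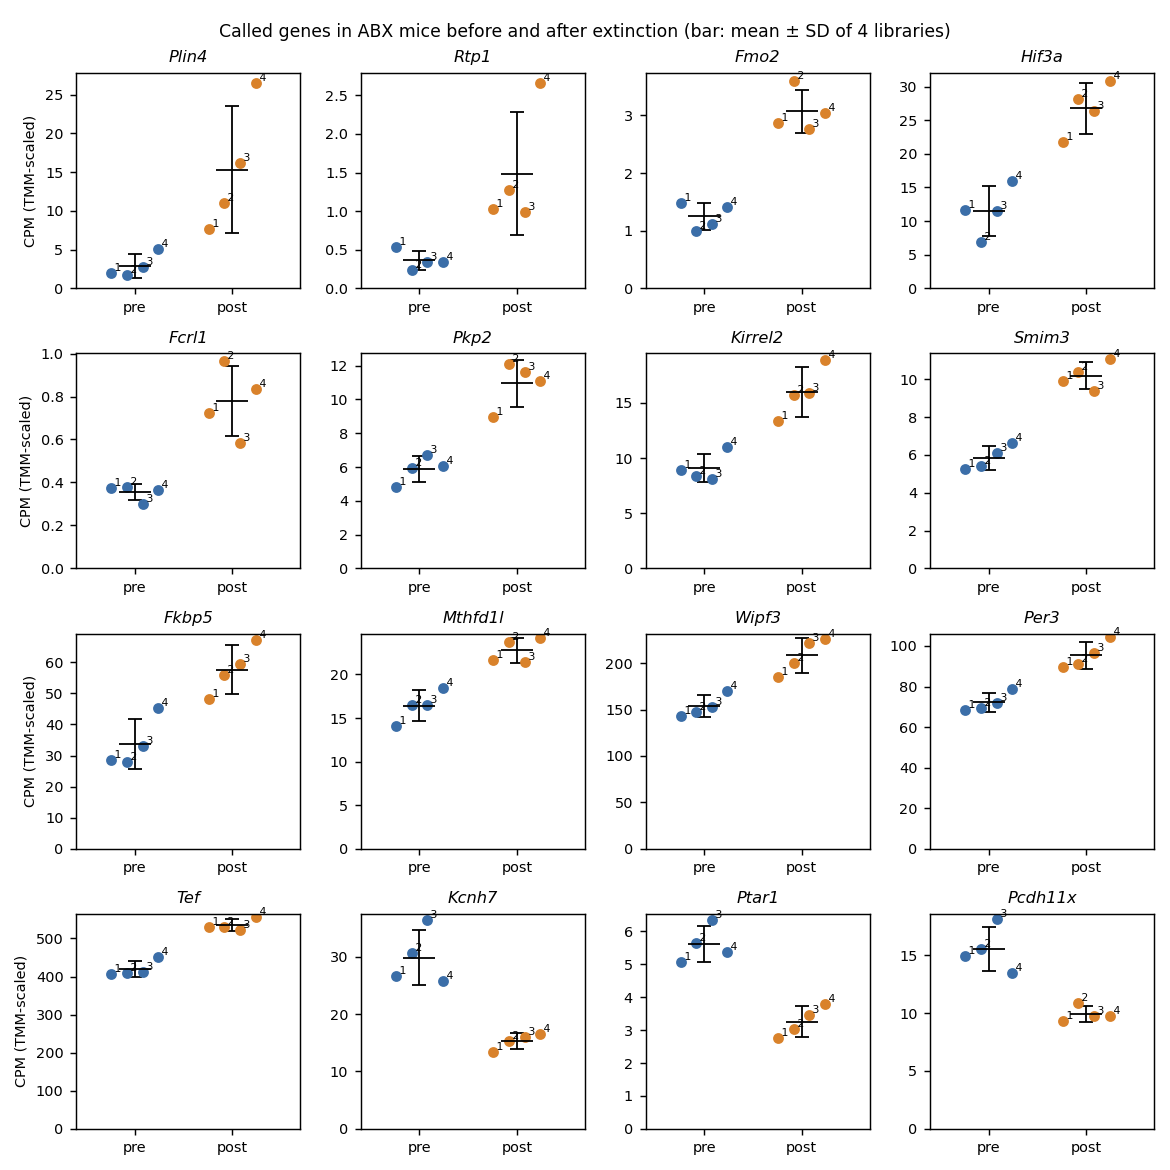
TMM-scaled CPM of each of the 16 called genes in the 4 pre-extinction (blue) and 4 post-extinction (orange) ABX libraries, numbered by replicate, with the mean and SD of each group. The groups do not overlap in any panel, and pre-extinction replicate 4 is the highest of its group in 9 of the 13 genes called higher.

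Kcnh7, Pcdh11x and Ptar1 fell after extinction. Kcnh7 (2:62693410-63184287) encodes a voltage-gated channel of the ERG subfamily that dampens repetitive firing. It stood at 26.8, 30.7, 36.4 and 25.7 CPM before and 13.4, 15.3, 16.1 and 16.5 CPM after extinction, with all post-extinction libraries well below all pre-extinction libraries. The means were 29.9 ± 4.84 and 15.3 ± 1.37 CPM (SD, n = 4 each), a log2 difference of -0.96 (SE 0.16, edgeR adjusted p = 0.0256). In non-ABX mice the difference was almost the same size, -0.95, with group means of 29.7 ± 5.43 CPM before (SD, n = 3) and 15.4 ± 3.85 CPM after (SD, n = 4), and did not pass there. The difference between both stage effects was -0.02 with a 95% interval of -0.52 to 0.49.

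Pcdh11x (X:120290238-120910622), a gene of the protocadherin adhesion family, stood at 14.98, 15.6, 18.2 and 13.5 CPM before and 9.32, 10.9, 9.73 and 9.75 CPM after extinction. The log2 difference was -0.65 (SE 0.10, edgeR adjusted p = 0.0186) in ABX and -0.38 in non-ABX mice, where it did not pass. Ptar1 (19:23687361-23732885), which encodes a subunit of a protein prenyltransferase, stood at 5.07, 5.66, 6.36 and 5.36 CPM before and 2.75, 3.02, 3.46 and 3.79 CPM after extinction, a difference of -0.78 (SE 0.14, edgeR adjusted p = 0.0450) without overlap. With the GC trend removed, Ptar1 no longer passed (-0.61, edgeR adjusted p = 0.0791), nor did it under a minimum mean of 1 CPM (edgeR adjusted p = 0.0522).

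With 1 library left out, Kcnh7 passed only without pre-extinction replicate 4 or post-extinction replicate 1, and Ptar1 only without pre-extinction replicate 4 (largest edgeR adjusted p = 0.113 and 0.195). Pcdh11x did not pass without pre-extinction replicate 1, 2 or 3 or post-extinction replicate 3 or 4 (largest edgeR adjusted p = 0.0996). With the 8 ABX libraries fitted alone Kcnh7 passed (edgeR adjusted p = 0.0232), and Pcdh11x and Ptar1 did not (0.0807 and 0.0941). Kcnh7 overlaps Gca, which differed by -0.21 and did not pass. The genes closest to the threshold on the lower side were Fosl2 (edgeR adjusted p = 0.0522, described with the immediate early genes), Kctd16, an auxiliary subunit gene of GABA-B receptors (-0.48, edgeR adjusted p = 0.0605), the protein kinase gene Prkg1 (-0.49, edgeR adjusted p = 0.0651) and Gpr137c (-0.39, edgeR adjusted p = 0.0651).

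Ion channel lists had medians near 0, but more lower than higher genes at an unadjusted p under 0.05. Of 39 potassium channel genes 17 were higher and 22 lower, with a median of -0.02 (-0.11 with the GC trend removed and between -0.09 and 0.02 with 1 library left out). Kcnh7 alone of them was called, while 11 were lower and 1 higher at an unadjusted p under 0.05. Of all genes tested 8.91% were lower and 7.61% higher at that level. For 6 potassium channel genes the libraries did not overlap downward and for 0 upward, against 2.78% and 2.69% of all genes. Of 39 genes for calcium channels, pumps and signalling 18 were higher and 21 lower, with 3 higher and 7 lower at that level. Of 13 sodium and HCN channel genes 5 were higher and 8 lower, with 0 higher and 3 lower at that level. Kcnh5, a related channel gene, stood at 14.9, 16.3, 20.8 and 16.4 CPM before and 12.2, 12, 12 and 10.1 CPM after extinction, a log2 difference of -0.56 (SE 0.12, edgeR adjusted p = 0.0700) without overlap. The large-conductance calcium-activated channel gene Kcnma1 differed by -0.41 (edgeR adjusted p = 0.123). Of 11 non-clustered protocadherin genes Pcdh11x alone was called, and Pcdh9 differed by -0.36 (edgeR adjusted p = 0.0700).

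Of the 19 genes for GABA receptors and GABA synthesis 15 were lower and 4 higher, with a median of -0.17. At an unadjusted p under 0.05, 9 were lower, against 8.91% of all genes tested, and none was called. The receptor subunit gene Gabrb1 stood at 18.7, 21.6, 22.2 and 15.9 CPM before and 11.4, 15.3, 14.2 and 12.5 CPM after extinction, a difference of -0.55 (SE 0.12, edgeR adjusted p = 0.0760). With the GC trend removed the list median was -0.10, and it was between -0.21 and -0.12 with any 1 library left out. The 37 genes encoding AMPA, NMDA and kainate receptor subunits and postsynaptic scaffolds were mixed, 23 higher and 14 lower with a median of 0.06 (-0.02 with the GC trend removed). Of 7 metabotropic glutamate receptor genes 4 were lower and 3 higher, with a median of -0.17 that came to -0.04 without pre-extinction replicate 2 and to -0.10 with the GC trend removed, and none was called.

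Among adhesion and guidance genes, 19 of 30 neurexin, neuroligin and synaptic adhesion genes were lower (median -0.13, and -0.05 with the GC trend removed) and 26 of 44 axon guidance genes (median -0.07). The netrin receptor gene Dcc, at 33.7, 33.0, 32.9 and 27.0 CPM before and 22.3, 24.4, 23.6 and 24.4 CPM after extinction, had one of the smallest p-values of the guidance list and did not pass (-0.42, SE 0.09, edgeR adjusted p = 0.0805). Chrm3, the M3 muscarinic acetylcholine receptor gene, stood at 106, 105, 108 and 104 CPM before and 88.3, 89.1, 88.6 and 76.5 CPM after extinction. Its groups did not overlap and its difference of -0.30 (SE 0.06) missed the threshold (edgeR adjusted p = 0.0651). In both stages the values of Chrm3 were tight, apart from post-extinction replicate 4.

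Cholesterol synthesis genes were mostly lower after extinction, and none passed. These genes are controlled together by the SREBP2 transcription factor, which is released when membrane sterol is low. Of the 24 genes 19 were lower and 5 higher, with a median log2 difference of -0.20. At an unadjusted p under 0.05, 13 were lower and 0 higher, against 8.91% and 7.61% of all genes tested. The libraries of 6 did not overlap in the downward direction, against 2.78% of all genes. Insig1, whose product retains the SREBP complex in the endoplasmic reticulum, stood at 73.7, 67.6, 68.2 and 62.1 CPM before and 60.3, 46.9, 46.1 and 51.7 CPM after extinction, a difference of -0.41 (SE 0.08, edgeR adjusted p = 0.0651).

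The groups of Insig1 did not overlap. Cyp51 differed by -0.35 (edgeR adjusted p = 0.105) and the sterol carrier gene Stard4 by -0.44 (edgeR adjusted p = 0.123). The list median stayed between -0.23 and -0.15 with any 1 library left out and was -0.19 with the GC trend removed. In non-ABX mice the list median was -0.15, and no gene of the list had an unadjusted interaction p under 0.05.

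**Figure D4:**
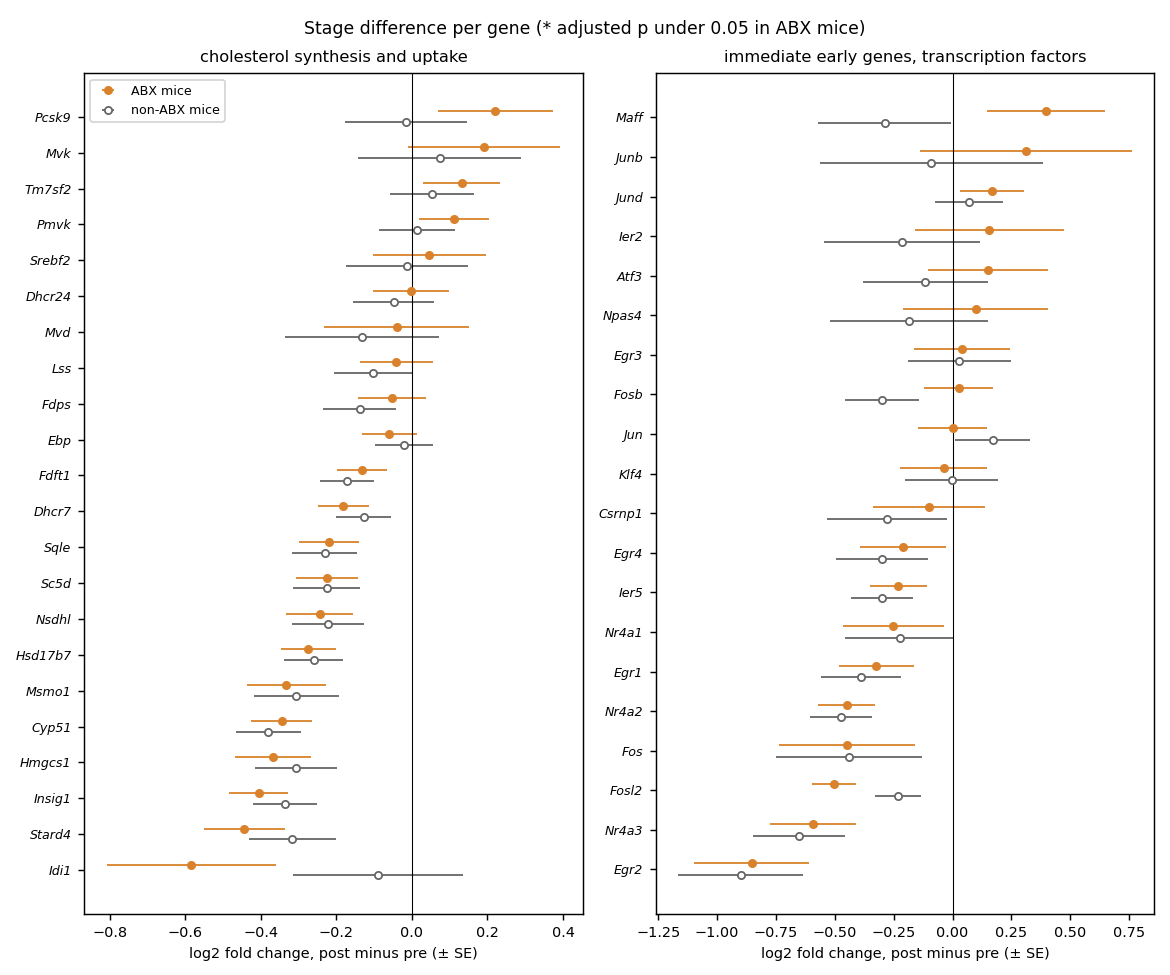
Log2 fold change after against before extinction with its SE (horizontal axis) for 22 of the 24 genes of the cholesterol synthesis and uptake list (left) and for each gene of the immediate early transcription factor list (right), in ABX mice (filled orange) and non-ABX mice (open grey). No gene carries an asterisk, which would mark an edgeR adjusted p under 0.05 in ABX mice.

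Immediate early genes did not pass the test either. Of 20 genes encoding immediate early transcription factors, 9 were higher and 11 lower, with log2 differences from -0.85 to 0.40 and a median of -0.07, which was 0.004 without post-extinction replicate 2 -0.20 without post-extinction replicate 1 and -0.26 with the GC trend removed. At an unadjusted p under 0.05, 4 were lower and 0 higher, against 8.91% and 7.61% of all genes tested. Fosl2, a Fos-related subunit of AP-1, stood at 40.1, 41.8, 50.5 and 45.1 CPM before and 32.0, 31.5, 29.7 and 32.0 CPM after extinction. The post-extinction libraries of Fosl2 lay within a narrow range below all pre-extinction libraries, and its difference of -0.50 (SE 0.09) just missed the threshold (edgeR adjusted p = 0.0522).

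Egr2, a zinc finger factor, stood at 17.5, 12.7, 18.2 and 17.6 CPM before and 11.8, 7.55, 6.49 and 10.7 CPM after extinction, a log2 difference of -0.85 (SE 0.24, edgeR adjusted p = 0.161). The orphan receptor genes Nr4a2 and Nr4a3 differed by -0.45 and -0.59 (edgeR adjusted p = 0.139 and 0.171). The most used activity marker, Fos, stood at 41.1, 35.8, 39.4 and 42.5 CPM before and 44.7, 16.8, 20.3 and 34.5 CPM after extinction, with overlapping groups and a difference of -0.45 (SE 0.29, edgeR adjusted p = 0.392). Npas4, a neuron-specific activity-induced factor, differed by 0.10 (SE 0.31). Post-extinction replicate 1 had the highest Fos and Npas4 of the 8 libraries, at 44.7 and 74.5 CPM, and was the library with neutrophil transcripts.

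Downstream activity-regulated effectors were lower in 26 of 30 cases, with a median of -0.11 that was -0.18 without pre-extinction replicate 1 and -0.17 with the GC trend removed, and none was called. At an unadjusted p under 0.05, 8 were lower and 1 higher, against 8.91% and 7.61% of all genes tested. Bdnf, the neurotrophin gene, differed by -0.38 (SE 0.11, edgeR adjusted p = 0.166) and Arc, a regulator of AMPA receptor traffic, by -0.39 (SE 0.35, edgeR adjusted p = 0.526). In non-ABX mice 28 of the 30 were lower, with a median of -0.16, and no gene of either list had an unadjusted interaction p under 0.05.

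Markers of cell types gave no call in either direction. The libraries were taken as bulk tissue from their source, although the labels' protocols name sorted cells as the input. In bulk tissue, fewer cells of a type and less RNA per cell cannot be told apart. Medians were -0.02 for 29 endothelial, 0.15 for 16 pericyte and smooth muscle, -0.04 for 24 meningeal and perivascular fibroblast, 0.05 for 20 microglial and 0.05 for 18 astrocyte markers. With the GC trend removed the pericyte median was 0.08, the microglial median -0.002 and the astrocyte median 0.02. Several glucocorticoid-induced genes are also expressed in vessels and astrocytes, and the list levels are given for that reason. Mean log2 CPM of the endothelial list ran from 3.72 to 4.20 before and 3.78 to 4.16 after extinction. That of the astrocyte list ran from 6.92 to 7.16 and from 6.99 to 7.17. In each list the ranges of both stages overlapped almost entirely. The endothelial range before extinction reached 4.20 only in replicate 4, with 3.79, 3.72 and 3.92 in replicates 1 to 3. The pericyte and smooth muscle list, with 13 of 16 genes higher, stood at 2.20, 2.16, 2.16 and 2.64 before and at 2.48, 2.25, 2.39 and 2.64 after extinction. As in the glucocorticoid-induced list, all 4 post-extinction libraries lay above pre-extinction replicates 1 to 3, with pre-extinction replicate 4 within or above their range. The pericyte median came to 0.33 without pre-extinction replicate 4 and to 0.07 without pre-extinction replicate 2, and the endothelial and fibroblast medians turned to 0.10 each without pre-extinction replicate 4, which had the highest endothelial, pericyte and fibroblast levels of its group. Their part in the glucocorticoid result was not tested.

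The oligodendrocyte lineage was divided without calls. Of 14 precursor markers 9 were higher (median 0.20, but 0.02 with the GC trend removed), and of 18 myelin markers 10 were lower (median -0.11). Medians of neuronal subtype markers were -0.04 for 14 upper-layer, -0.06 for 20 deep-layer and 0.01 for 20 interneuron genes. The deep-layer median turned to 0.09 without pre-extinction replicate 2, and the interneuron median to -0.05 with the GC trend removed and to -0.03 without post-extinction replicate 1. Of 45 cytosolic ribosomal protein genes 36 were higher, with a median of 0.14 and no call. Of the 13 mitochondrially encoded transcripts 12 were lower with a median of -0.17, which became 0.001 without pre-extinction replicate 1 and 0.05 with the GC trend removed.

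Other lists held no called gene. The 21 receptor genes for serotonin, dopamine and noradrenaline had a median of 0.14, 14 of them higher, which came to 0.04 without pre-extinction replicate 1 and 0.02 with the GC trend removed. The 13 striatal projection neuron markers had a median of 0.12, which came to -0.007 without post-extinction replicate 4 and 0.03 with the GC trend removed. Heat shock and unfolded protein response genes, which mark proteotoxic stress, were higher in 13 of 20 cases. Their median was 0.07, or 0.02 with the GC trend removed, 0.05 without post-extinction replicate 1 and 0.12 without post-extinction replicate 4. At an unadjusted p under 0.05, 5 were higher and 2 lower, against 7.61% and 8.91% of all genes tested. Interferon response and antigen presentation genes were divided, 11 higher and 13 lower (median -0.06, which turned to 0.15 without pre-extinction replicate 4 and came to -0.19 without post-extinction replicate 1). The 16 genes of the perineuronal net, a matrix around inhibitory neurons, had a median of -0.11, which came to -0.03 without post-extinction replicate 1. The 36 genes of synaptic vesicle release had a median of 0.02, which turned to -0.04 with the GC trend removed and ran from -0.02 to 0.04 with 1 library left out.

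Blood cell markers had the largest list median, 1.25 over the 8 of 16 genes that could be tested. Their mean log2 CPM was -0.11, -1.44, -1.60 and -1.50 in pre-extinction replicates 1 to 4. In post-extinction replicates 1 to 4 it was 1.14, -1.12, -1.00 and -1.16. The median was 0.21 without post-extinction replicate 1 and 0.32 without pre-extinction replicate 1. The low-count filter was applied anew in each fit and fewer named genes passed it there. These medians can therefore cover different genes and cannot be compared directly with 1.25. S100a8, a calprotectin gene of neutrophils, stood at 2.17 CPM in post-extinction replicate 1 and at 0.0806 to 0.165 CPM in the other 3 post-extinction libraries. Without post-extinction replicate 1, Plin4, Hif3a, Fkbp5, Tef, Per3, Fmo2, Pkp2 and Smim3 were still called higher.

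**Figure D5:**
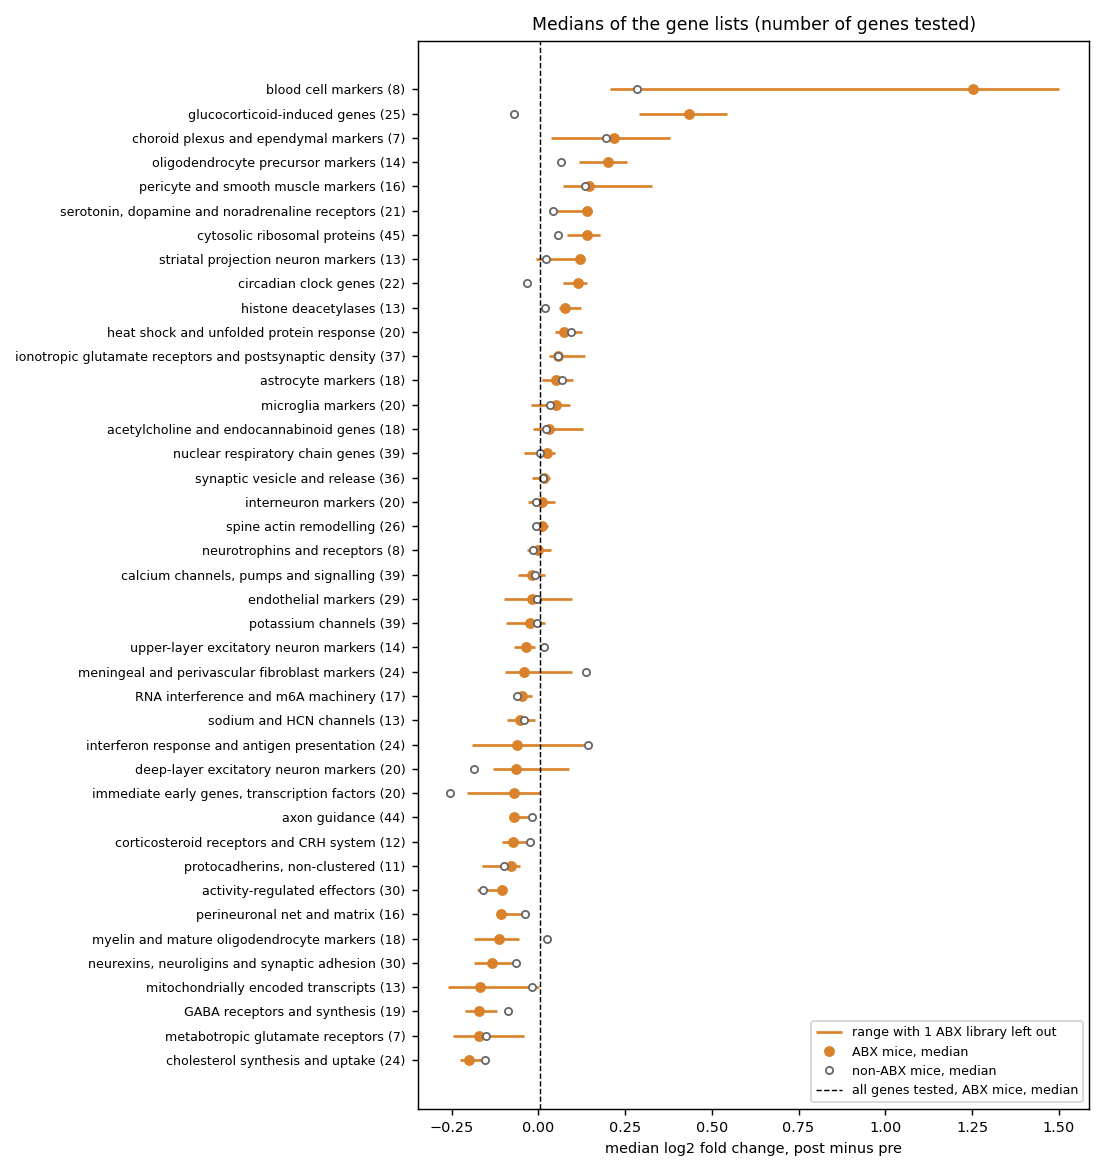
Median log2 fold change after against before extinction (horizontal axis) of the genes in each of the 41 lists, with the number tested, in ABX mice (filled orange) and non-ABX mice (open grey). Orange lines span the medians with 1 ABX library left out, each over the list genes that passed the filter in that fit. The dashed line is the median of all genes tested, 0.005. The glucocorticoid-induced list lies at 0.43 with a range from 0.29 to 0.54, while the blood cell list ranges from 0.21 to 1.5.

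Whether the stage difference depended on ABX treatment was tested for every gene by the interaction in the same fit. No gene passed (0 of 16816, 0%), while 344 (2.05%) had an unadjusted p under 0.05. DESeq2 called 4 genes, and voom with sample quality weights called 0 with 945 at an unadjusted p under 0.05. The smallest edgeR p belonged to Myh6, a cardiac myosin heavy chain gene, for which the stage difference was 0.17 in ABX and -1.06 in non-ABX mice, an interaction of 1.24 (95% interval 0.72 to 1.75, unadjusted p = 7.50e-05, edgeR adjusted p = 0.556). Myh6 stood at 1.46 ± 0.317 before and 1.63 ± 0.241 CPM after extinction in ABX mice (SD, n = 4 each), and the larger difference lay in non-ABX mice, with 4.87 ± 0.175 (SD, n = 3) before and 2.33 ± 0.416 CPM (SD, n = 4) after extinction. Prr16, a regulator of cell size, had the opposite form, with -0.23 in ABX and 0.54 in non-ABX mice and an interaction of -0.76 (95% interval -1.09 to -0.43, edgeR adjusted p = 0.556). The fourth gene that DESeq2 called for the interaction, beside Fmo2, Pkp2 and Myh6, was Prr16.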

How the data were processed

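RNA from dissected mPFC was sequenced after library preparation with a SMARTer Ultra Low Input kit, which loses strand; per the labels' protocols sorted cells were the input, although the source is dissected tissue. Values are raw read counts for each Entrez identifier and library, as deposited, without normalization. The submitters' processing notes name the tools CASAVA 1.8.2 and STAR 2.3.0 and the genome build mm10; how reads were counted, and on which annotation, was not given in the sources used here. Of 27179 identifiers 4671 had 0 counts and 25275 matched a RefSeq GRCm38.p6 symbol, covering 99.7% of counts. Positions and promoters come from the same RefSeq assembly.

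The main test was edgeR 4.0.16 under R 4.3.3. After filterByExpr (at least 10 counts, total at least 15) and TMM scaling, all 15 libraries entered a robust quasi-likelihood model of 4 group means. The contrast post minus pre in ABX mice and its difference from the contrast in non-ABX mice were tested two-sided, with Benjamini-Hochberg adjustment over 16816 genes and a threshold of 0.05. SEs were derived from the log2 value and the F statistic (the former over the root of the latter), and interaction intervals are at 95%. The biological coefficient of variation was 0.112, which exceeds counting error except at low CPM. CPM are TMM-scaled, except for Slc17a7, Tbr1, Drd1 and Ttr, which are plain CPM; list levels are means of log2 CPM (prior count 2). Within each ABX group, no 2 libraries agreed within sampling noise, and other pairs were not compared. The pipeline was tested on simulated data.

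The members and the 41 gene lists (913 memberships) were chosen with earlier results of these data known. The naming rule took every called gene that had an ordinary symbol, non-overlapping libraries and a mean of 1 CPM or more, the 5 genes of smallest p not called where fewer than 10 were called in a direction, the 4 genes of smallest p in each list and the 5 of smallest interaction p. Some genes of the lists are not reported here. Named after their values were seen were Rtp1, Fcrl1, Cry1, Dbp, Rora, Clock, Npas2, Nphs1, Tmem252, Sult1a1, Pla2g3, Fos, Arc, Npas4, Nr3c2, Per1, Sgk1, Klf9, Per2, Nr1d1, Bhlhe40 and Cdkn1a, and genes that overlap a called gene. Alternatives were DESeq2 1.42.0, limma 3.58.1 with voom and sample quality weights, scaling by RLE, no low-count filter, the 8 ABX libraries alone, a minimum mean of 1 CPM, a block for replicate number and each library left out. Added after seeing the data were removal of the GC trend (a spline with 5 degrees of freedom, possible for 91.2% of tested and 99.7% of list genes) and omission of both ABX libraries numbered 1.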

Additional observations from a re-analysis of the deposited data

Results flagged for a closer look

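In 21 of 400 combinations of a named gene and a group, 1 of the 4 libraries stood far from the other 3 by Dixon's criterion at the 95% level; chance flags about 1 in 20 such groups. Pre-extinction replicate 4 stood high for Tef (450 CPM, others 406 to 411), Myl9 (11 CPM, others 7.06 to 7.45), Mgp (23.3, others 16.2 to 16.8), Fgfr3 (103, others 76.2 to 79.5), Gpr17 (49.4, others 40.2 to 40.6) and Nphs1 (2.5, others 2.12 to 2.14), and low for Dcc (27 CPM, others 32.9 to 33.7). Its value of Tef lay on the side of the post-extinction libraries.

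Post-extinction replicate 1 stood high for the neutrophil genes S100a8 (2.17 CPM, others 0.0806 to 0.165), S100a9 (3.62, others 0.0833 to 0.165) and Ngp (2.26, others 0 to 0.0604), and low for Rora (8.88, others 10 to 10.1) and Nr3c2 (27.4, others 33.1 to 33.4). Pre-extinction replicate 1 stood high for S100a9 (0.619 CPM, others 0.0544 to 0.149), the hemoglobin gene Hba-a2 (0.531, others 0.0403 to 0.0544) and Olig2 (11.5, others 8.08 to 8.53). Pre-extinction replicate 2 was low for Egr2 (12.7 CPM, others 17.5 to 18.2). Post-extinction replicate 2 was high for Nalcn (159, others 127 to 132) and Nlgn1 (103, others 85.6 to 88), and post-extinction replicate 4 was low for Kcnh5 (10.1, others 12 to 12.2) and Chrm3 (76.5, others 88.3 to 89.1). Post-extinction replicate 3 was low for Bhlhe40 (230 CPM, others 261 to 266).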

How the results depend on the processing

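The stage counts rested more on the setting than on any gene's direction. Against 13 genes called higher and 3 lower, DESeq2 called 98 and 184, voom with sample quality weights 220 and 245, the 8 ABX libraries alone 3 and 2, removal of the GC trend 37 and 51 (15 of the 16 calls remained) and omission of both libraries numbered 1 7 and 1. RLE scaling gave 13 and 3, no filter 13 and 4, and a mean of at least 1 CPM 10 and 2. With 1 library left out the counts ran from 3 to 102 higher and from 0 to 141 lower. The interaction gave 0 calls in every setting except DESeq2, with 4. With the replicate number as a replicate block the counts were 14 and 6. Kirrel2 and Rtp1 lost their calls there (edgeR adjusted p = 0.0808 and 0.0717). Deviations of libraries with the same number correlated at 0.322, 0.042, -0.143 and 0.342 for numbers 1 to 4. Since 2 of these are not above 0.1, and the labels tie no numbers together, the libraries were not taken as paired; those numbered 1 and 4 correlated best with their own number, those numbered 2 and 3 did not. The cause of these differences was not tested. Depth limited mainly genes near or under 1 CPM, such as Rtp1, Fcrl1 and the blood cell markers.

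None of the named genes that reversed direction had been called. With the GC trend removed they were Grm2 (-8e-04), Ppp1r1b (-0.0288), Gfra2 (-0.0332), Adra2a (-0.0189), Hdac11 (-0.0013), ND5 (0.0488), ND4 (0.056), ND6 (0.0607), Cox8a (-0.0553), Foxj1 (-0.039), Npas4 (-0.0651), Nr3c2 (0.0132) and Klf9 (0.0161). Under voom they were Ngp (-0.535), Nr3c2 (0.02), Per1 (0.028) and Nr1d1 (0.0023), and without both libraries numbered 1 Npas4 (-0.0508) and Nr3c2 (0.0605). With 1 library left out, Gfra2 ran from -0.0068 to 0.1241, Npas4 from -0.2037 to 0.2501, Nr3c2 from -0.0502 to 0.0404, Per1 from -0.2263 to 0.1074, Klf9 from -0.0798 to 0.0371 and Nr1d1 from -0.1678 to 0.0772.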
